A study of Mus musculus with 12 samples.

Results

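The nuclear genome of the mouse encodes most subunits of the respiratory chain, and the expression of these genes was compared between wild-type and Drosha-deficient embryonic stem (ES) cells. The genes were taken by name. They comprise every row whose gene name begins with Nduf (complex I), Uqcr (complex III) or Atp5 (complex V), the genes Sdha to Sdhd with the assembly factors that carry the Sdh name (complex II), and the names Cox4 to Cox8 (complex IV), without names marked as pseudogenes. By their known roles, Ndufa4 and Ndufa4l2 were counted in complex IV and Atp5sl among the assembly factors of complex I. This gave 92 genes, of which 91 were listed in the mRNA table and 91 in the long RNA table, out of 36883 rows in each. The rule uses names alone. Cyc1, the cytochrome c1 subunit of complex III, does not begin with Uqcr and is therefore not among the members. Cox4i1, the common form of subunit 4, was not analysed here, and Ndufb2 shares a row whose name begins with another gene and was not a member by name. Ndufb8 was a member in long RNA alone, since its mRNA row begins with another name, and Ndufa13 in mRNA alone, since the long RNA row does not name it.

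Drosha is a ribonuclease of the nucleus that releases microRNA hairpins from their primary transcripts. The study's title asks after a role of this enzyme in the upkeep of CG methylation, and the RNA libraries show gene expression in cells of the same genotypes. Wild-type ES cells and Drosha-deficient ES cells, both cultured with serum and leukemia inhibitory factor, were each represented by 1 library of poly(A)-selected mRNA and 1 library of long RNA. The labels name neither the Drosha allele nor the number of clones. For the methylation samples they give the wild-type line as AB1 (129Sv/Ev) and derive the Drosha-deficient cells from AB1, and the RNA labels name no line. With 1 library per genotype and fraction, no difference below has a replicate check and none was tested.

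The respiratory chain passes electrons from NADH and succinate to oxygen through complexes I to IV and pumps protons across the inner mitochondrial membrane, and ATP synthase (complex V) uses that gradient to make ATP. Complexes I, III, IV and V mix subunits encoded in the nucleus with subunits encoded in mitochondrial DNA, whereas complex II is wholly nuclear. Several small subunits of complex IV, and subunit c of ATP synthase, exist as forms encoded by separate genes, some of which are used mainly in muscle, lung or testis. Mouse ES cells use both glycolysis and respiration.

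Values are FPKM (fragments normalised by the length of the transcript and the size of the library), as the authors deposited them. A difference is log2((Drosha-deficient FPKM + 1)/(wild-type FPKM + 1)), so a value below 0 means a lower level in Drosha-deficient cells. A gene is called higher or lower at 2-fold on this scale. A row was used where its status in the authors' table was OK and where 1 FPKM was reached in 1 library or more. This held for 89 of the 91 members in mRNA and 86 of the 91 in long RNA. A fold printed for a gene is the plain ratio of its FPKM values. Fragment numbers were estimated from rows with a short locus, taking the commonest product of FPKM and locus length as 1 fragment. The estimates were 21800000 (wild type) and 24100000 (Drosha-deficient) for the mRNA libraries, and 18300000 and 21800000 for the long RNA libraries. The commonest value held 91 of 2033 such rows in wild-type mRNA and 135 of 2107 in Drosha-deficient mRNA, so these depths are rough. At those depths 1 fragment on a 1 kb transcript is worth between 0.0414 and 0.0547 FPKM, and the intervals of single values are unknown because the counts themselves were not used here. Drosha itself stood at 42.1 FPKM in wild type and 6.22 in the Drosha-deficient library in mRNA, and at 21.2 and 4.34 in long RNA. Of 5 ES cell markers in mRNA and 4 in long RNA none was called, and their summed mRNA level was 1278 FPKM in wild type and 1473 in Drosha-deficient cells. The 5 fibroblast markers examined (Col1a1, Col1a2, Acta2, Thy1 and Vim) all lay below 0 in both fractions, with 3 called lower in mRNA and 4 in long RNA. Their summed level fell from 270 to 99.7 FPKM in mRNA, and in long RNA from 153 to 56.4, and Col1a2 stood at 19.6 FPKM in wild-type mRNA and 0.116 in Drosha-deficient mRNA. The part of this shift in the differences described below was not tested. In RNA from whole cultures, fewer cells of a type and less RNA per cell cannot be told apart.

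Most respiratory chain genes stood slightly lower in the Drosha-deficient library, and few passed 2-fold. In mRNA 70 of 89 members (78.7%) lay below 0, against 49.5% of all 14752 rows tested. In long RNA 68 of 86 (79.1%) did, against 53.4% of 13933 rows. The members had a median difference of -0.33 in mRNA, where all rows tested had 0.01. In long RNA the members had -0.35 and all rows -0.04. The members are highly expressed, with a median wild-type mRNA level of 103 FPKM. Rows with a mean of at least 20 FPKM had a median of 0.05 in mRNA and -0.02 in long RNA, and rows with at least 50 FPKM had 0.03 and -0.06.

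At 2-fold the members were close to the background on the lower side. In mRNA 8 of 89 (8.99%) fell, against 7.93% of all rows, and in long RNA 7 of 86 (8.14%) fell, against 6.89%. On the higher side the members were fewer than the background share. In mRNA 2 of 89 (2.25%) rose, against 8.64% of all rows, and in long RNA 2 of 86 (2.33%) rose, against 6.26%. With the bound at 1.5-fold, 25 members (28.1%) were lower in mRNA against 19.4% of all rows, and 18 (20.9%) were lower in long RNA against 17.3%. At the same bound 4 members (4.49%) were higher in mRNA against 19.0%, and 3 (3.49%) in long RNA against 13.4%.

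Among the 85 members tested in both fractions, 74 had the same sign in both. Of these, 62 (72.9%) lay below 0 in both fractions, against 41.3% of the 13322 rows tested in both, and 12 lay above 0. Lower calls in both fractions were made for 5 members (5.88%), against 4.12% of all rows, and higher calls in both for 2 (2.35%), against 4.58%. Across these 85 genes, which are not independent replicates and come from the same pair of cultures, the differences in mRNA and long RNA had a Pearson's r of 0.854 and a Spearman's rho of 0.775.

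**Figure D1:**
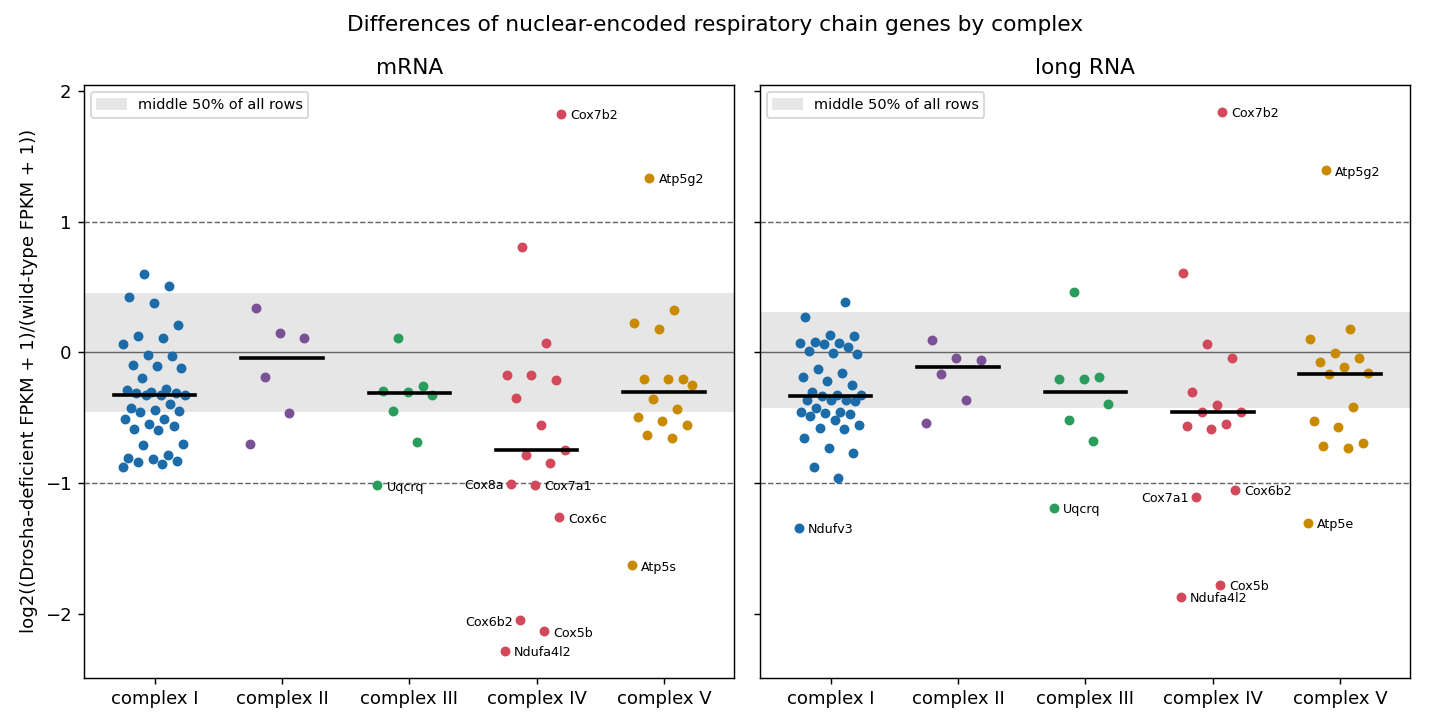
Difference between Drosha-deficient and wild-type cells, on the log2(FPKM + 1) scale, for each member by complex in mRNA (left) and long RNA (right). Each point is 1 gene from 1 library per genotype, black bars are medians, dashed lines mark 2-fold, and the grey band holds the middle 50% of all rows tested. Most points lie below 0, and complex IV spreads furthest in both directions, with a median of -0.75 in mRNA and -0.45 in long RNA. These complex IV medians include tissue-restricted forms and an assembly factor.

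Complex IV (cytochrome c oxidase), which passes electrons to oxygen, held most of the called genes. Of its 17 members tested in mRNA 6 fell and 1 rose, and of 15 tested in long RNA 4 fell and 1 rose. Of all rows tested, 7.93% fell and 8.64% rose in mRNA, and 6.89% fell and 6.26% rose in long RNA. Its summed FPKM in mRNA was 2897 in wild type and 2055 in the Drosha-deficient library. The calls split between common subunits and forms restricted to certain tissues. Ndufa4l2, known for its induction by low oxygen rather than for a tissue, was counted with the restricted forms. Together these made up 3 of the lower calls and the higher call in each fraction. The 8 accessory subunits had a median of -0.38 in mRNA, and the 7 tested in long RNA had -0.30. Those of complex I had -0.43 and -0.40. Cox5a and Cox5b had medians of -1.24 and -1.12, and the restricted forms -0.90 and -1.05.

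Cox5b, the zinc-binding subunit of complex IV at chr1:36691487-36693388, stood at 90.0 FPKM in wild-type mRNA and 19.7 in Drosha-deficient mRNA. Its long RNA values were 40.6 and 11.1 FPKM. It was 4.57-fold lower in mRNA and 3.66-fold lower in long RNA, the lowest of the common subunits of any complex in both. Cox5a, its neighbour in the matrix-facing part of the complex, stood at 365 and 286 FPKM in mRNA and 151 and 110.0 in long RNA and was not called. Cox5b shares its name with a pseudogene in RefSeq, and any reads shared with that copy cannot be told apart in these tables. A shared name was also found for 9 other members: Ndufa12, Ndufab1, Ndufs5, Uqcrh, Cox7c, Atp5f1, Atp5k, Atp5l and Atp5c1.

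Cox6c, a small membrane subunit, fell from 296 to 123 FPKM in mRNA, a 2.41-fold difference. Its long RNA values were 101 and 62.8 FPKM, but the authors' status marks that row as failed and it was not tested there. Cox8a, the common form of the smallest subunit, fell from 254 to 126 FPKM in mRNA and stood at 89.1 and 64.8 in long RNA, where it was not called. Both calls thus rest on the mRNA pair, and the Cox8a difference of -1.01 lies at the 2-fold bound. Cox7b stood at 251 FPKM in wild type and 139 in Drosha-deficient mRNA and was not called.

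The most abundant complex IV members stood close to equality. Cox6a1 stood at 490 FPKM in wild-type mRNA and 434 in Drosha-deficient mRNA, and at 91.5 and 95.5 in long RNA. Ndufa4, once assigned to complex I and now placed in complex IV, stood at 415 and 358 FPKM in mRNA and 215 and 209 in long RNA. Cox7c was the common complex IV subunit that lay above 0 in both fractions. It stood at 60.4 and 107 FPKM in mRNA and 22.4 and 34.6 in long RNA, short of 2-fold in each, and it is among the genes that share a name with a pseudogene.

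The tissue-restricted forms of complex IV subunits, counted with Ndufa4l2, stood below their common partners in wild type, apart from Cox4i2, whose partner was not analysed. They carried 4 of the 7 calls made in both fractions. Ndufa4l2, a paralogue of Ndufa4 known as a gene induced by low oxygen, lies at chr10:127509274-127517154. It fell from 26.05 to 4.55 FPKM in mRNA, and in long RNA from 7.90 to 1.44, which is 5.72-fold and 5.50-fold. It overlaps Shmt2, and no source used here gives the use of strand in counting, so reads of both genes cannot be told apart where they overlap.

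Cox6b2, the testis form of subunit 6b at chr7:4751792-4753094, fell from 66.7 to 15.3 FPKM in mRNA, and in long RNA from 10.2 to 4.41. Its common partner Cox6b1 stood at 258 and 229 FPKM in mRNA and 109 and 87.9 in long RNA. Cox7a1, the heart and muscle form of subunit 7a at chr7:30184171-30186030, fell from 58.2 to 28.3 FPKM in mRNA, and in long RNA from 20.1 to 8.77. Its partner Cox7a2 stood at 187 and 127 FPKM in mRNA and 85.0 and 64.1 in long RNA. In both families the restricted form was further below 0 than the common form in each fraction.

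Cox7b2, a testis-enriched form of subunit 7b at chr5:71442823-71548205, went the other way. It rose from 2.43 to 11.2 FPKM in mRNA, and in long RNA from 1.67 to 8.58, 4.59-fold and 5.13-fold, while its common partner Cox7b stood lower in the Drosha-deficient library of both fractions. Even so, Cox7b at 139 FPKM remained far above Cox7b2 in Drosha-deficient mRNA. Cox4i2, the lung form of subunit 4, stood at 4.05 and 1.92 FPKM in mRNA and 1.08 and 0.385 in long RNA and was not called on the scale with the pseudocount. Cox8c, a testis form, stood at 1.56 and 1.69 FPKM in mRNA and was listed at 0 in both long RNA libraries. The muscle forms Cox6a2 and Cox8b stood at or under 0.0726 FPKM in every library and were not tested.

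**Figure D2:**
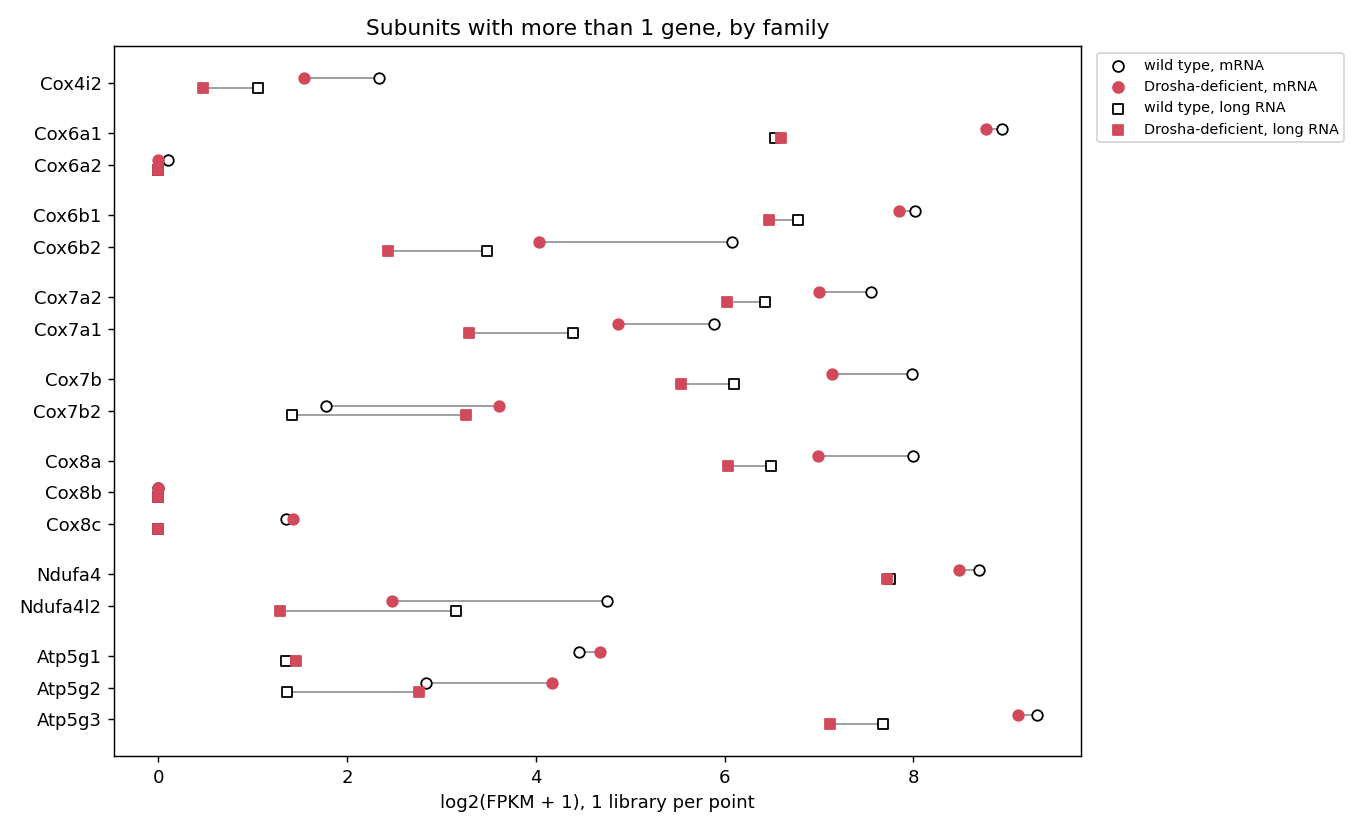
Levels of subunits encoded by more than 1 gene, as log2(FPKM + 1), with families separated by gaps. Circles are mRNA and squares long RNA, open symbols are wild type and filled symbols Drosha-deficient, 1 library per point, and a line joins both genotypes of a fraction. Cox6b2, Cox7a1 and Ndufa4l2 lie lower in Drosha-deficient cells in both fractions, and Cox7b2 and Atp5g2 lie higher. In the same families Cox6b1, Cox7a2, Ndufa4, Cox7b and Atp5g3 lie to the right of these genes with shorter lines.

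Complex I (NADH dehydrogenase), the entry point for electrons from NADH, had no called member among 42 in mRNA and 1 among 41 in long RNA. Of all rows tested, 7.93% fell and 8.64% rose in mRNA, and 6.89% fell and 6.26% rose in long RNA. The median of complex I was -0.33 in both fractions. The 7 conserved core subunits and the accessory subunits differed in where they stood. The core subunits had a median of -0.02 in mRNA and 0.07 in long RNA, with 4 of 7 below 0 in mRNA and 3 of 7 in long RNA. The 27 accessory subunits had a median of -0.43 in mRNA, with 23 below 0, and the 26 tested in long RNA had -0.40, also with 23 below 0. Whether this gap between core and accessory subunits exceeds the spread between cultures was not tested.

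Among the core subunits, Ndufs1, which carries iron-sulfur clusters of the electron path, stood at 54.6 and 57.1 FPKM in mRNA and 53.7 and 58.5 in long RNA. Ndufv1, which binds NADH and flavin, stood at 92.7 and 100.3 FPKM in mRNA and 63.8 and 67.1 in long RNA. Both lay above 0 in both fractions, and neither was called. Ndufs8 stood at 42.3 and 41.7 FPKM in mRNA and 22.3 and 24.6 in long RNA, near equality in mRNA. Ndufv2, Ndufs3 and Ndufs7 carry or border iron-sulfur clusters and lay below 0 in both fractions. Their mRNA differences were -0.33, -0.46 and -0.51, and none was called.

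Ndufv3, an accessory subunit of the flavoprotein part, was the called complex I gene. In long RNA it fell from 56.7 to 21.8 FPKM, and in mRNA it stood at 142 and 77.9, a 1.82-fold difference short of a call. Ndufa7, the most abundant complex I member in wild-type mRNA, stood at 286 and 166 FPKM there and at 116 and 59.1 in long RNA, a 1.97-fold difference in the latter. Ndufa2, the next most abundant, stood at 246 and 242 FPKM in mRNA and 70.5 and 59.1 in long RNA. Ndufa9, which lies near the ubiquinone site, stood at 73.6 and 105 FPKM in mRNA and 54.4 and 56.8 in long RNA.

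The 8 complex I assembly factors, which help to build the complex and do not remain in it, were low, with a median wild-type level of 16.3 FPKM in mRNA. Their median difference was -0.26 in mRNA and -0.17 in long RNA. Ndufaf7 stood lowest, with 11.4 and 5.75 FPKM in mRNA, and was not called. Ndufs5, a subunit of complex I in all tissues, was listed at 0.612 FPKM in wild type and 1.45 in Drosha-deficient mRNA, and under 1 FPKM in both long RNA libraries, so its row says little about the gene's level.

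Complex II (succinate dehydrogenase), which links the citrate cycle to the chain, lay closest to equality. Its median was -0.04 in mRNA and -0.11 in long RNA, with no called member among 6. Of all rows tested, 7.93% fell and 8.64% rose in mRNA, and 6.89% fell and 6.26% rose in long RNA. At those shares a group this small would hold few calls. Sdha, the flavin-binding subunit, stood at 131 FPKM in wild type and 167 in Drosha-deficient mRNA and at 76.8 and 73.8 in long RNA. Sdhb, the iron-sulfur subunit, stood at 140 and 150.5 FPKM in mRNA and 77.8 and 75.4 in long RNA. The membrane anchors lay lower. Sdhc stood at 167 and 146 FPKM in mRNA and 68.5 and 61.1 in long RNA, and Sdhd at 103 and 74.5 in mRNA and 62.2 and 48.1 in long RNA.

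Complex III (cytochrome bc1), which passes electrons from ubiquinol to cytochrome c, had 1 called member of 8, the same gene in both fractions. Of all rows tested, 7.93% fell and 8.64% rose in mRNA, and 6.89% fell and 6.26% rose in long RNA. Uqcrq, a small membrane subunit at chr11:53427922-53430831, was the most abundant complex III member in wild-type mRNA. It fell from 415 to 204 FPKM in mRNA, and in long RNA from 18.02 to 7.34, 2.03-fold and 2.45-fold. Its mRNA difference of -1.02 lies at the 2-fold bound, and its row overlaps Gdf9. Uqcrh, the hinge subunit, stood at 398 and 317 FPKM in mRNA and 147 and 102 in long RNA. The core proteins Uqcrc1 and Uqcrc2 stood at 149 and 160.5, and at 148 and 119 FPKM in mRNA, and the Rieske iron-sulfur protein Uqcrfs1 at 119 and 87.0. In long RNA all of these lay below 0, Uqcrc1 with 104 and 89.7 FPKM, Uqcrc2 with 66.3 and 50.04, and Uqcrfs1 with 78.7 and 69.0. The medians of complex III were -0.31 in mRNA and -0.30 in long RNA.

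Complex V (ATP synthase) had a summed mRNA level of 4771 FPKM in wild type and 4755 in the Drosha-deficient library, while its median member lay at -0.30 in mRNA and -0.16 in long RNA. The sum is set largely by the catalytic subunits. Atp5b, the beta subunit and the most abundant of all members, stood at 1729 and 2170 FPKM in mRNA and 975 and 1103 in long RNA. Atp5a1, the alpha subunit, stood at 611 and 693 FPKM in mRNA and 468 and 466 in long RNA. Both stood above the line of equality in mRNA, and neither was called. The stalk subunits lay lower. Atp5c1 (gamma) stood at 237 and 200 FPKM in mRNA and Atp5d (delta) at 214 and 135. Atp5e, the epsilon subunit, fell from 86.9 to 34.6 FPKM in long RNA and stood at 247 and 167 in mRNA, a 1.48-fold difference short of a call.

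The 3 genes for subunit c of the membrane rotor encode the same mature protein with different import signals. Atp5g3 supplied most of their mRNA, with 631 FPKM in wild type and 549 in Drosha-deficient cells, and 204 and 137 in long RNA. Atp5g1 stood at 20.9 and 24.6 FPKM in mRNA and 1.56 and 1.75 in long RNA. Atp5g2, at chr15:102662868-102671047, rose from 6.12 to 17.0 FPKM in mRNA, and in long RNA from 1.58 to 5.77, 2.78-fold and 3.66-fold. It was the lowest of the 3 in wild-type mRNA and stayed below Atp5g1 and Atp5g3 in Drosha-deficient mRNA. In long RNA it stood about level with Atp5g1 in wild type and above it in the Drosha-deficient library.

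Atp5s, also called coupling factor B, fell from 13.1 to 3.54 FPKM in mRNA and stood at 6.05 and 3.36 in long RNA, where it was not called. Atp5l, subunit g, stood at 10.9 and 7.79 FPKM in mRNA. Rows with similar names that are marked as pseudogenes, which were not members, listed 44.5 and 9.92 FPKM for Atp5l2-ps and 14.4 and 9.92 for Atp5l-ps1 in mRNA. Both rows thus list the same value in the Drosha-deficient library.

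**Figure D3:**
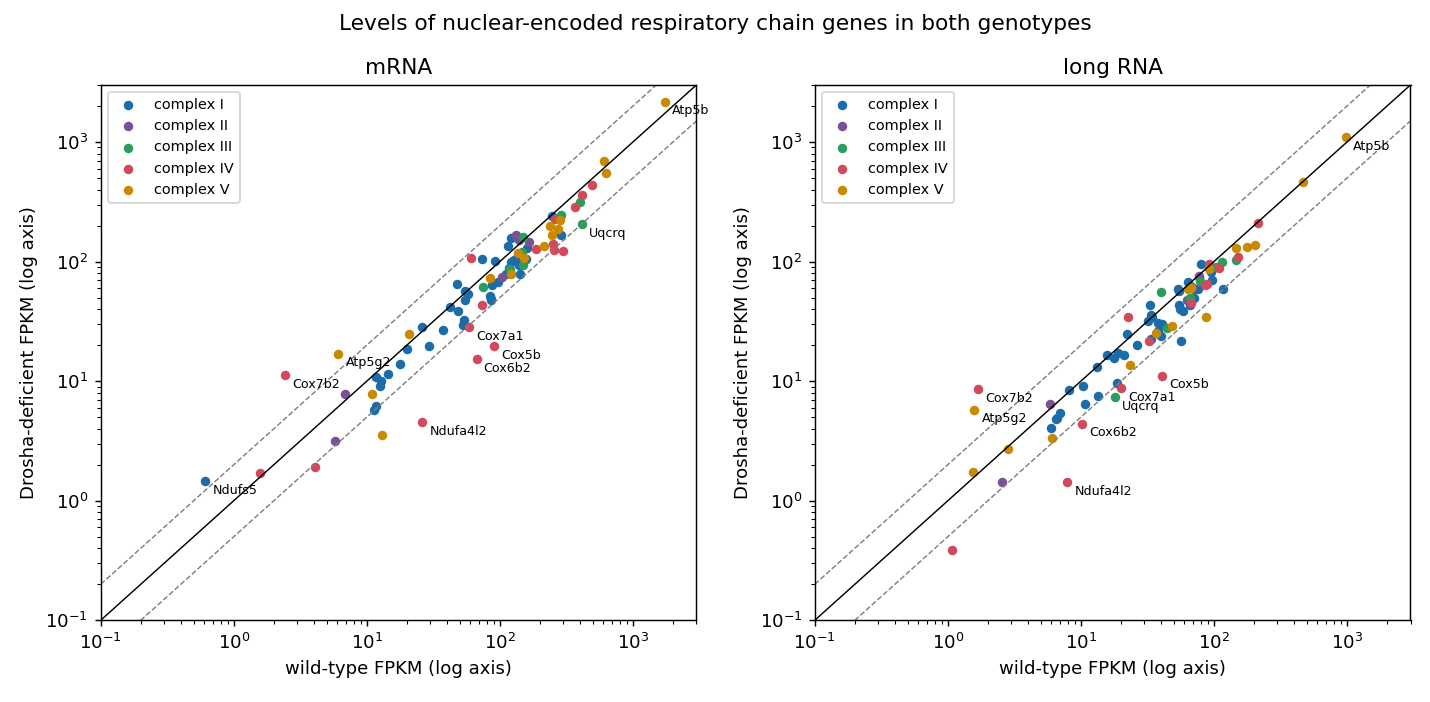
FPKM of each tested member in wild-type (x axis) and Drosha-deficient cells (y axis), both on log axes, in mRNA (left) and long RNA (right), coloured by complex, 1 library per genotype. The solid line is equality and the dashed lines mark a 2-fold ratio of FPKM. Atp5b, at 1729 and 2170 FPKM in mRNA, lies just above equality at the top, and most other members lie a little below it.

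Grouped by role across complexes, the 21 core and central subunits had a median difference of -0.25 in mRNA and -0.16 in long RNA, with 13 and 16 below 0. Cox5a and Cox5b were counted in this class for complex IV, whose catalytic core is encoded in mitochondrial DNA. The accessory subunits had -0.38 (50 tested) and -0.37 (48 tested), with 43 and 40 below 0. The 12 assembly factors and related proteins had -0.39 and -0.26. The tissue-restricted forms, counted with Ndufa4l2, had -0.90 (6 tested) and -1.05 (5 tested), and 4 lay below 0 in each fraction.

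The promoters of the genes called the same way in both fractions are given here because the study's title concerns CG methylation. Each runs from 250 bases before the gene start to 50 bases after the gene start, as given by RefSeq for GRCm38.p6, read 5′ to 3′ on the strand of the gene. Capitals mark CG dinucleotides. The table had no entry for Ndufa4l2 and Uqcrq.
Cox5b, chr1:36691237-36691536, plus strand: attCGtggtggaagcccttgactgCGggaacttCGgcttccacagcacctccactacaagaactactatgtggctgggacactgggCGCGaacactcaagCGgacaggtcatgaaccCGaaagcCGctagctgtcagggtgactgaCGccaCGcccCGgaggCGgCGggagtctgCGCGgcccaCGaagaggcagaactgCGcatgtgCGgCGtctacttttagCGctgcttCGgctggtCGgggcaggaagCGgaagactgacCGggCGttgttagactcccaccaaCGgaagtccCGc
Cox6b2, chr7:4753045-4753344, minus strand: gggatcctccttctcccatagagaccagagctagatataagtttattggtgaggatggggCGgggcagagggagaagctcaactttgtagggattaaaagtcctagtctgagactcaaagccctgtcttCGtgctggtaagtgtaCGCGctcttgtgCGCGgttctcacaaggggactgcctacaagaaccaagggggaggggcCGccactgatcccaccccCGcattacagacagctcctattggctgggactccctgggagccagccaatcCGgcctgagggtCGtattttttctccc
Cox7a1, chr7:30183921-30184220, plus strand: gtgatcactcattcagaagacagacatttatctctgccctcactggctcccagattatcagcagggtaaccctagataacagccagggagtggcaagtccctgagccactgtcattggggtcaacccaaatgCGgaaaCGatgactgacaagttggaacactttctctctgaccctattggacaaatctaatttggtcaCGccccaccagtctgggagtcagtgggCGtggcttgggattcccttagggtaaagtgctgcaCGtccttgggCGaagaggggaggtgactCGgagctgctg
Cox7b2, chr5:71548156-71548455, minus strand: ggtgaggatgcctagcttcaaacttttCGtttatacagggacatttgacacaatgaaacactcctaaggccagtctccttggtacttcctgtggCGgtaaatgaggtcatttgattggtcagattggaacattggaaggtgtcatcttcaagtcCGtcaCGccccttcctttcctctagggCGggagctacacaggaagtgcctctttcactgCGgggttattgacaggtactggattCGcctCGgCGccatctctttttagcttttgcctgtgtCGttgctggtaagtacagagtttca
Atp5g2, chr15:102670998-102671297, minus strand: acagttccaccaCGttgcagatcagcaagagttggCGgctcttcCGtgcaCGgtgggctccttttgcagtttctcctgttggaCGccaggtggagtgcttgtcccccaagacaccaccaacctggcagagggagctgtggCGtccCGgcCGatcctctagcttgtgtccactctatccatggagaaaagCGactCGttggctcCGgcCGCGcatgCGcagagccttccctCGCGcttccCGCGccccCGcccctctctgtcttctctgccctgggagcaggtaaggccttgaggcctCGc
The Cox5b sequence holds 27 CG dinucleotides and the Atp5g2 sequence 20. Cox6b2 and Cox7b2 hold 10 each and Cox7a1 holds 7. The median over the 77 members with an entry was 20 (range 2 to 44), and over 8884 protein-coding genes tested in mRNA it was 22. The 3 tissue-restricted complex IV forms shown thus held fewer CG dinucleotides than the median member, whichever way their expression differed. Methylation itself was not analysed here.

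Nuclear respiratory factor 1 (NRF1), GA-binding protein (GABPA) and YY1 are transcription factors known to act on many respiratory chain promoters. Their motifs were searched on both strands in the same windows, as the letters GCGCANGCG for NRF1, CCGGAAG for GABPA and AAGATGGC for YY1. Matches of different motifs overlapped in 0 member promoters. Counted per gene, the NRF1 letters were found in 22 of 77 members (28.6%). They were found in 15.7% of the protein-coding genes tested in mRNA and in 7.03% of all 27025 genes with a promoter. The GABPA letters were found in 19 members (24.7%), against 20% and 9.93%, and the YY1 letters in 11 (14.3%), against 5.32% and 3.19%. At least 1 of the 3 motifs was found in 44 members (57.1%) and in 35.3% of the protein-coding genes tested.

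The NRF1 matches of 9 members are shown with 8 bases on each side, with the match in capitals, to set genes of complexes I to V with unlike differences beside each other. They are read on the strand of the gene, from the same RefSeq promoters.
Ndufs6: ctgctgtgCGCCTGCGCcggcactt
Sdha: tttacaggGCGCAGGCGcaccacca
Sdhd: gctggggtGCGCACGCGcggtggca
Uqcrc1: ccttacagCGCTTGCGCctcagact
Uqcr11: cgccttcaCGCATGCGCtatacgtc
Cox6a1: ggaacgggGCGCATGCGcgctctcg
Atp5c1: gagctcccGCGCACGCGcactgagt
Atp5g3: ccgcaccgCGCTTGCGCgcccagcc
Atp5g2: ctccggccGCGCATGCGcagagcct
These genes ran from -0.69 (Uqcr11) and -0.60 (Ndufs6) to 0.34 (Sdha) and 1.34 (Atp5g2) in mRNA. Over all members with an entry, those with an NRF1 match had a median of -0.31 in mRNA (22 genes, 17 below 0) and -0.36 in long RNA (21 genes, 17 below 0). Those without had -0.45 (53 genes, 43 below 0) and -0.36 (53 genes, 42 below 0). With any of the 3 motifs the median was -0.31 in mRNA (43 genes) and -0.30 in long RNA (43 genes), and with none -0.53 (32 genes) and -0.43 (31 genes). A match is a run of letters and was not examined for binding.

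Regulators of mitochondrial genes were also measured. The list joins transcription factors and coactivators of nuclear respiratory genes with Tfam, Tfb1m, Tfb2m, Polrmt and Mterf1a, which act on mitochondrial DNA. Of 15 regulators tested in mRNA and 14 in long RNA none was called at 2-fold, and their medians were 0.19 and 0.00. Over all rows tested, 7.93% fell and 8.64% rose in mRNA, and 6.89% fell and 6.26% rose in long RNA. At those shares a list this short would hold few calls. Nrf1 stood at 41.2 and 50.5 FPKM in mRNA, Gabpa at 40.7 and 45.2, and Yy1 at 40.2 and 44.9. Tfam, the packaging protein of mitochondrial DNA, stood at 77.9 and 80.7 FPKM in mRNA and, the other way, at 48.8 and 39.7 in long RNA. In long RNA Nrf1 stood at 32.6 and 38.4 FPKM, Gabpa at 44.9 and 44.3, and Yy1 at 35.4 and 35.7. In mRNA 11 regulators lay above 0 and 4 below, and in long RNA 7 lay on each side. The 4 below 0 in mRNA, Esrra, Esrrb, Myc and Tfb1m, also lay below 0 in long RNA. Esrra stood at 9.48 and 6.43 FPKM in mRNA and 6.17 and 4.46 in long RNA. Esrrb stood at 113 and 94.4 FPKM in mRNA and 63.3 and 43.7 in long RNA. The coactivator Ppargc1a stood at or under 0.0549 FPKM in every library and was not tested.

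Other genes of the same organelle were set beside the members. Of 17 citrate cycle genes none was called in either fraction, and the medians were 0.02 in mRNA and 0.08 in long RNA. Of 9 carriers and pores for ATP and phosphate none was called, with medians of -0.21 and -0.02. Of 34 assembly factors with other names, 3 fell in mRNA and 1 in long RNA, with medians of -0.13 and -0.11. The shares of all rows that fell were 7.93% in mRNA and 6.89% in long RNA. Uqcc2, which acts in complex III assembly, was called in both fractions and fell from 98.1 to 28.5 FPKM in mRNA, and in long RNA from 48.2 to 14.2. Cox14, an assembly factor of complex IV, fell from 61.2 to 24.4 FPKM in mRNA.

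The list of electron carriers and dehydrogenases, with 8 genes, had 2 higher calls in mRNA and none in long RNA, with medians of 0.12 and 0.06. It holds Cyc1, the complex III subunit outside the naming rule. Cyc1 stood at 106 and 89.9 FPKM in mRNA and 44.0 and 37.2 in long RNA. The shares of all rows that rose were 8.64% in mRNA and 6.26% in long RNA. Gpd2, the mitochondrial glycerol phosphate dehydrogenase, rose from 16.4 to 35.7 FPKM in mRNA. Cycs, the gene of somatic cytochrome c, rose from 1.81 to 8.14 FPKM in mRNA and stood at 1.77 and 2.75 in long RNA. Its wild-type values lie near the minimum of 1 FPKM, and reads shared with any copies elsewhere were not examined. The Cycs row thus says little about the gene's level.

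Ribosomal protein genes are short and abundant like the members. Of 71 mitochondrial ribosomal protein genes, 51 lay below 0 in mRNA (median -0.31) and 52 in long RNA (median -0.30), and 3 fell and 0 rose in each. Mrpl23 fell from 49.9 to 5.73 FPKM in mRNA. Their medians and shares below 0 thus lie near those of the respiratory chain genes. Of 85 cytosolic ribosomal protein genes in mRNA 15 rose and 11 fell, with a median of -0.14, and of 84 in long RNA 10 rose and 12 fell, with a median of -0.31. Among them Rps27 rose from 9.10 to 86.4 FPKM and Rpl10a fell from 684 to 179 in mRNA. Reads shared with pseudogene copies were not examined for these lists. Over all rows tested, 8.64% rose and 7.93% fell in mRNA, and 6.26% rose and 6.89% fell in long RNA. No difference between these lists and the members was tested.

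The mitochondrially encoded partners, whose transcripts are merged into few rows in the mRNA table, lay mostly above 0 in mRNA. The row of mt-Nd1 and mt-Nd2 rose from 2351 to 5182 FPKM, mt-Cytb stood at 699 and 1192, and mt-Nd6 at 326 and 282. The row that merges 9 further names stood at 13690 and 19381 FPKM. The median of these 4 rows was 0.64. The long RNA table holds other rows of this list, so its median of -0.54 over 3 rows is not comparable. There mt-Co1 stood at 1352 and 931 FPKM. The rows present in both tables kept their sign, mt-Cytb with 161 and 189 FPKM in long RNA and mt-Nd6 with 121 and 67.8.

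The differences moved with gene span, the distance from the first to the last annotated base. Among protein-coding rows in mRNA the median rose from -0.22 for genes under 5 kb to 0.24 for genes of 50 kb or more. Members are short, with 27 under 5 kb, and their median in that class was -0.51. In the classes of 5 to 10, 10 to 20 and 20 to 50 kb the members had -0.38 (28 genes), -0.44 (14 genes) and -0.15 (12 genes), against -0.19, -0.10 and 0.04 for protein-coding rows. In long RNA the members had -0.53, -0.33, -0.34 and -0.16 in the same 4 classes, against -0.17, -0.17, -0.09 and -0.02. Taken relative to the median of protein-coding rows of their own class, the members had a median of -0.24 in mRNA (84 genes) and -0.20 in long RNA (81 genes). This comparison was chosen after seeing the data, and the part of span in the differences was not tested.

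**Figure D4:**
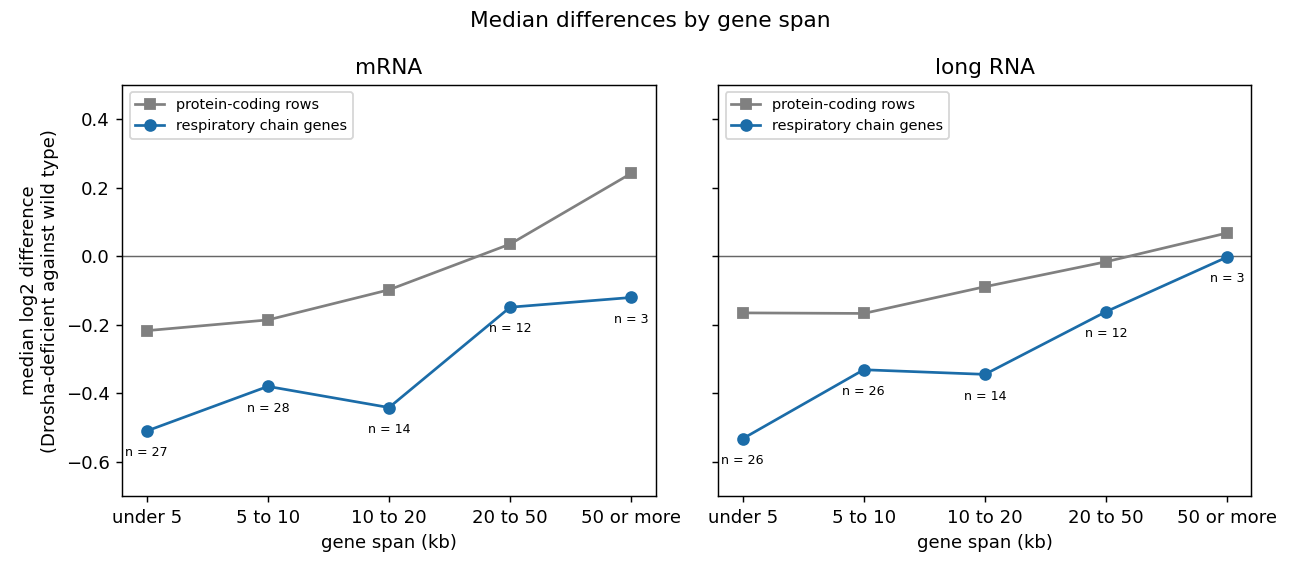
Median log2 difference between Drosha-deficient and wild-type cells by gene span class in kb, for protein-coding rows (grey squares) and respiratory chain genes (blue circles) in mRNA (left) and long RNA (right), 1 library per genotype, with the number of members under each circle. In every class of both fractions the members lie below the protein-coding rows. The members' median is -0.51 in the shortest class in mRNA and -0.12 in the longest, which holds 3 genes, and it dips between the classes of 5 to 10 and 10 to 20 kb in both fractions.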

How the data were processed

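Of 12 samples, the wild-type and Drosha-deficient libraries of mRNA and long RNA were analysed, 1 per genotype and fraction, grouped by their titles. The RNA of Dnmt1-deficient cells and the methylation libraries were left aside and are not analysed here. By elimination, the long RNA table belongs to the samples titled total RNA, since the other tables match the other titles. RNA was extracted with Trizol, split into long and short RNA or selected with oligo-dT, and made into libraries with a small RNA kit, per the labels' protocols. The authors deposited gene-level FPKM values, wild type first, per the file headers. The tools were Cuffdiff, Cufflinks 2.1.1, TopHat2 2.0.10 and bcl2fastq 1.8.4, with the build mm10/GRCm38, per the submitters' processing notes. No source used here gives the annotation, the scaling of libraries or the use of strand.

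With 1 library per genotype there are no replicates, no batch could be fitted and no p-value is given. The authors' p-values were not used. Differences used a pseudocount of 1, which understates the change of low genes, rows with status OK and at least 1 FPKM in 1 of both libraries, and a call at 2-fold. Since the scaling of the tables is not known, levels were not compared across them, and 0 columns of other samples were left unused. Values were computed with python 3.11.15, pandas 2.3.3, numpy 2.4.6 and scipy 1.17.1, and the scripts were tested on simulated data. All 92 members matched the RefSeq gene table of GRCm38.p6, 89 by symbol and 3 by synonym, and 77 had a promoter entry. Of the members, 30 overlap another RefSeq gene.

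The members, lists, motifs and naming rule were chosen with earlier results of these data known. Genes were named when they are core subunits or belong to a family of tissue forms, were called at 2-fold, were among the 6 highest or lowest in both fractions or the 2 most abundant of a complex, or differed most between fractions, with up to 2 genes in each direction from other lists. A gene that the rule names is not reported here. Thy1 and Vim count among the fibroblast markers though other cells use them. Alternatives were another pseudocount (0.1 or 5), another minimum (none or 5 FPKM), rows of every status except failed, centring on the median of all rows tested, a 1.5-fold call, common structural subunits alone, and, chosen after seeing the data, differences relative to rows of like gene span and leaving out members that share a name with a pseudogene.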

Additional observations from a re-analysis of the deposited data

Results flagged for a closer look

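Ndufab1 and Uqcrb lay in opposite directions in mRNA and long RNA, with the widest such gaps among the members. Ndufab1, the acyl carrier protein that is also a complex I subunit, stood at 118 FPKM in wild type and 87.5 in Drosha-deficient mRNA, and at 33.3 and 43.7 in long RNA. Its difference was 0.81 higher in long RNA than in mRNA on the log2 scale. Uqcrb, a complex III subunit that contacts ubiquinone, stood at 74.9 and 60.8 FPKM in mRNA, and at 39.9 and 55.2 in long RNA, a gap of 0.76. Neither gene was called in either fraction. With 1 library per genotype and fraction, the difference between the fractions was not tested.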

How the results depend on the processing

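A median was taken as stable when it moved by no more than 0.1 and a count when it stayed within 1.5 times. Of the values recomputed under the alternatives, 72 were stable, 12 moved and 0 changed sign. With a pseudocount of 5, the higher calls were 1 in mRNA and 1 in long RNA, the lower calls in long RNA were 4, and the median of complex IV in mRNA was -0.54, since a larger pseudocount shrinks the differences of low genes. With common structural subunits alone (69 members in mRNA, 67 in long RNA), 4 fell and 1 rose in each fraction, because the tissue-restricted forms, assembly factors and rows with several names were left out. With a call at 1.5-fold, 25 were lower and 4 higher in mRNA, and 18 were lower in long RNA. Relative to rows of like gene span, the long RNA median of the members was -0.20, and the cause was not tested. Without members that share a name with a pseudogene, 7 fell and 2 rose in mRNA and 6 fell and 2 rose in long RNA. Pseudogenes under other names were not searched for, so these counts cannot show the effect of shared reads in general. No paired analysis was possible because each genotype has 1 library per fraction. Leaving out a replicate could not be done for the same reason. Depth limits the low genes most, such as Cox4i2, Cox7b2, Cox8c and Ndufs5, which rest on fewer fragments per kb than the abundant members.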

Other observations

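In the short RNA table, which the comparisons above do not use, 54 of the members had a tested row. Their median difference was 0.26, against -0.03 over all 2597 rows tested. Atp5b was the highest member, with 179 FPKM in wild type and 160.1 in Drosha-deficient cells. Ndufa4 stood at 18.1 and 64.2 FPKM. The FPKM of all rows summed to 4060451 in wild type and 873840 in Drosha-deficient cells, so the libraries differ widely in what they hold. The short RNA libraries held an estimated 2630000 and 2910000 fragments, so 1 fragment on a 1 kb transcript is worth 0.381 and 0.343 FPKM.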
